A study of Mus musculus with 24 samples.

Results

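The heat shock chaperones described here are 10 mouse genes, Hspa1a, Hspa1b, Hsph1, Dnajb1, Hsp90aa1, Hspa8, Hspb1, Hspe1, Hspd1 and their regulator Hsf1. They were taken by name from 30699 genes listed over 4 deposited tables, and all 10 were present in every table. Poly(A) RNA of brown (BAT) and white (WAT) adipose tissue from C57BL/6 mice was sequenced. The animals had been given antimiR-224, antimiR-452 or scramblemiR, an oligonucleotide with locked (LNA) bases against miR-224, against miR-452 or with a scrambled order, in 2 doses of 25 mg/kg under the skin. The 6 groups are antimiR-224, antimiR-452 and scramblemiR in each tissue, with 4 libraries a group. All 3 groups of a tissue therefore received an oligonucleotide, and no untreated mouse was analysed here. Both inhibitors of a tissue were compared with the same 4 scramblemiR libraries, so their results are not independent. The labels do not give the age of the mice or tie each library to a mouse of its own, and p-values therefore measure only the spread between these samples, which may be technical. The title of the series ties oestrogen to circulating miR-224 and miR-452, and the comparisons ask what follows in fat when either microRNA is inhibited.

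Chaperones bind proteins that are unfolded or newly made and help them fold. Heat, oxidation and other stresses release the transcription factor Hsf1, which trimerises, binds arrays of the motif nGAAn in promoters and switches on the inducible genes. Hspa1a, Hspa1b, Hsph1 and Dnajb1 belong to this strongly inducible set, and Hsp90aa1 and Hspb1 are also induced. Hspa8 is the constitutive cytosolic member of the Hsp70 family. Hspd1 and Hspe1 form the folding chamber and its lid in the mitochondrial matrix, and brown fat is rich in mitochondria.

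Both microRNAs are encoded on the X chromosome, and their mature forms are shown because they are what the inhibitors were directed against. The sequences are RefSeq's on GRCm38.p6 (chrX:72261085-72261105 and chrX:72262271-72262292, minus strand), with capitals on the seed, bases 2 to 8.
mmu-miR-224-5p: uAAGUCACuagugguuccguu
mmu-miR-452-5p: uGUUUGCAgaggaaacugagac
Complements of these seeds occurred in the 3′ UTRs of the chaperones at counts near the share of all genes. The letters GTGACTT, complementary to the miR-224-5p seed, occurred in 1 of 10 members, Dnajb1, against 12.8% of the longest 3′ UTRs of 21042 genes. The letters TGCAAAC, complementary to the miR-452-5p seed, occurred in 0 of 10 members, against 9.73% of those genes. Dnajb1 has the longest 3′ UTR of the members, with 1834 bases, and those of the others run from 83 to 963 bases.

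Reads of single libraries were recovered from the printed group means, and libraries are numbered 1 to 4 within a group by size factor. The BAT scramblemiR libraries held 16960694 to 20255777 reads in genes, and the WAT scramblemiR libraries 22175430 to 27935908. Tissue identity was as labelled: the authors' deposited tables list the brown fat uncoupling protein Ucp1 at 74998 to 96156 normalized counts in BAT group means and at 3.19 to 49.8 in WAT group means. Adipoq, the adipocyte hormone adiponectin, was at 13401 or more in every group mean. In WAT the deposited means of the adipocyte markers Lipe, Adipoq, Pnpla2, Cidec, Plin1, Lep and Fabp4 were all lower with either inhibitor than with scramblemiR. Plin1 was at 33867 against 57593 with antimiR-224 and at 47408 against 57934 with antimiR-452. What part this has in the chaperone values of WAT was not tested. Some libraries stood apart. In BAT the summed level of 7 less abundant skeletal muscle genes was 3565, 95.2, 59.0 and 29.2 in the antimiR-224 libraries and 14949, 258, 4.01 and 779 in the antimiR-452 libraries. It was 5973, 5109, 10.6 and 7.61 in the BAT scramblemiR libraries. In WAT the 6 recovered ciliated epithelium markers summed to 3889, 4613, 816 and 144 with antimiR-224, to 2423, 3832, 3025 and 53.3 with antimiR-452, and to 92.9, 2305, 53.2 and 520 with scramblemiR. The 4 recovered simple epithelium markers there summed to 2930, 3567, 938 and 591 with antimiR-224. They summed to 2522, 2765, 2439 and 468 with antimiR-452, and to 318, 377, 495 and 427 with scramblemiR. All antimiR-224 libraries and antimiR-452 libraries 1 to 3 thus lay above every control. WAT scramblemiR library 2 also held 29338 normalized counts of 10 male germ cell markers, against 57.4 or less in the other 3 controls, and antimiR-224 libraries 3 and 4 held 8593 and 2323.

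The chaperones of the mitochondrial matrix and the constitutive Hsp70 were the most abundant members in both fats. Levels are TPM, read numbers divided by exon length and scaled to the same total in every library, in the scramblemiR libraries, and each mean is over 4 libraries with its SD. In BAT, Hspd1, which codes for the chaperonin subunit Hsp60, averaged 235 ± 39.1 TPM. In WAT it averaged 137 ± 26.0 TPM. Its partner Hspe1 was at 172 ± 25.4 TPM in BAT and at 85.5 ± 18.8 TPM in WAT. Hspa8 was at 125 ± 20.97 TPM in BAT and 135 ± 21.7 TPM in WAT. The small heat shock protein gene Hspb1 was at 104 ± 53.8 TPM in BAT and 76.2 ± 32.3 TPM in WAT.

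Apart from Hspb1, the inducible genes had lower means, as did their regulator Hsf1. Hsp90aa1, the stress-inducible cytosolic Hsp90, was at 33.9 ± 9.95 TPM in BAT and 54.3 ± 9.15 TPM in WAT. Dnajb1, the Hsp40 that presents clients to Hsp70, was at 25.3 ± 6.92 TPM in BAT and 38.0 ± 11.8 TPM in WAT. Hsph1, the Hsp110 that exchanges nucleotide on Hsp70, was at 25.0 ± 12.002 TPM in BAT and 14.2 ± 3.87 TPM in WAT. Hsf1 was at 11.3 ± 1.64 TPM in BAT and 10.9 ± 2.92 TPM in WAT. Hspa1a and Hspa1b, the pair of inducible Hsp70 genes, were at 11.8 ± 15.9 and 9.24 ± 11.9 TPM in BAT, where the SD exceeded the mean, and at 5.17 ± 2.36 and 10.1 ± 3.27 TPM in WAT. In BAT the ranges of Hspd1 and Hspe1 did not overlap, and neither did those of Hspb1 and Hsp90aa1. The other neighbours in the BAT order overlapped. In WAT only the steps from Hspa8 to Hspe1 and from Dnajb1 to Hsph1 were free of overlap.

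Hspa1a (ENSMUSG00000091971, chr17:34969190-34972156) and Hspa1b (ENSMUSG00000090877, chr17:34956436-34959238) lie on the minus strand of the same chromosome in GRCm38 and GENCODE M21. Their coding sequences were identical at 99.5% of aligned bases, so their counts are uncertain where reads could come from either. Their longest 3′ UTRs were identical at 51.4% of aligned positions. Coding sequences of Hspa1a and Hspa8 were 74.7% identical. The promoter windows of the pair are shown because both genes had deposited ratios of the same sign in all 4 comparisons with scramblemiR, and those of Hsph1 and Hspe1 because these genes gave the smallest deposited p-values. Each window, RefSeq's on GRCm38.p6, runs from 250 bases before the start of the gene to 50 after it. Capitals mark paired heat shock units, GAANNTTC or TTCNNGAA, including runs of 3 units.
Hspa1a, chr17:34972107-34972406, minus strand: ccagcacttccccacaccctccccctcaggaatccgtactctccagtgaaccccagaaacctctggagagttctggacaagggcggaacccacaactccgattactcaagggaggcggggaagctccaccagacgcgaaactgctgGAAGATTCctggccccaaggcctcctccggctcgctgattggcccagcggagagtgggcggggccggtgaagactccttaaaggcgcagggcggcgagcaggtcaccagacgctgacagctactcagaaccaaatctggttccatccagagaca
Hspa1b, chr17:34959189-34959488, minus strand: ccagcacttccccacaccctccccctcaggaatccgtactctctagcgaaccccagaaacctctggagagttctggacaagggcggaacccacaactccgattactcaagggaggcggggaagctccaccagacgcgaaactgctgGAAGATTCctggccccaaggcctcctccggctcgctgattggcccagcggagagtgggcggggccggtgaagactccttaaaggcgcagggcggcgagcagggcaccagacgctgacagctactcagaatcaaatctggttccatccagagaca
Hsph1, chr5:149636287-149636586, minus strand: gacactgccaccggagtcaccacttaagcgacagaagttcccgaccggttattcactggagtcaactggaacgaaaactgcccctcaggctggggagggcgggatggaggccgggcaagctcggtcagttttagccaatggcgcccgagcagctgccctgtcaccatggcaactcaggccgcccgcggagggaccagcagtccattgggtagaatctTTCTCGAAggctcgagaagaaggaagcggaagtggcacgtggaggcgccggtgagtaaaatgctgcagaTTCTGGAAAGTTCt
Hspe1, chr1:55087898-55088197, plus strand: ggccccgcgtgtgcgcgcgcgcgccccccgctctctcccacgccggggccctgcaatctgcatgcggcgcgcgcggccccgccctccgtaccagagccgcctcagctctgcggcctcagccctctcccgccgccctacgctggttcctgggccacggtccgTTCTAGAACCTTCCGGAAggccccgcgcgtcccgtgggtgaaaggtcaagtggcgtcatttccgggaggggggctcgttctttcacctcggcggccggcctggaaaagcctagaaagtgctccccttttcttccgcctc

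The Hspa1a and Hspa1b windows were identical at 98.7% of 300 positions, and each held 1 paired unit that starts 104 bases before the gene. The Hsph1 window held a run of 3 units, TTC, GAA and TTC with 2 bases between each, that starts 37 bases into the gene. In the Hspe1 window the paired units joined into a longer run that starts 89 bases before the gene. Hspd1 is read the other way from the same region, and 1 of its 2 windows (chr1:55087883-55088182) covers the same run. Hspb1 had 2 separate pairs, and neither window of Dnajb1 had any. Over 32851 windows of this length, 15.1% held a pair and 0.603% a run of 3, on either strand. Windows for Hsp90aa1, Hspa8 and Hsf1 were not used here. Hspd1 and Hspe1 overlap at their starts, and the counting is not stated to use strand, so reads there cannot be assigned with certainty.

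In white fat, Hsph1 was higher with either inhibitor in every library, but no chaperone passed the adjusted test. The normalized count of Hsph1 was 1731, 1942, 1082 and 992 in the antimiR-224 libraries, against 746, 949, 898 and 598 in the scramblemiR libraries. Even the lowest antimiR-224 library stood above the highest control. Groups free of overlap in this direction made up 1.74% of the 15439 genes compared. With antimiR-452 the printed mean left 4 possible sets of reads, in which library 1 lay between 1245 and 1574, library 2 between 1696 and 2084, library 3 between 1320 and 1526 and library 4 between 1774 and 1921. All of them lay above the control maximum of 956 in that table, a separation that 0.972% of genes compared with antimiR-452 showed in this direction. The authors' deposited table for antimiR-224 gives Hsph1 a mean of 1437 against 798, a log2 ratio of 0.85 and p = 0.00757, adjusted p = 1. The authors' deposited table for antimiR-452 gives 1642 against 803, a log2 ratio of 1.03, p = 5.71e-04 and adjusted p = 0.234.

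Testing the recovered libraries with limma, a linear model with a spread shared across genes, gave Hsph1 a log2 difference of 0.81 ± 0.25 (SE) with antimiR-224. Its limma p was 0.0101, and the adjusted p was 0.831. For antimiR-452 the difference was 1.02 to 1.05 over the 4 sets, with limma p from 7.39e-05 to 9.85e-04 and adjusted p = 0.999 for each. The 2 highest antimiR-224 libraries, 1 and 2, were those with the highest epithelium markers. Without them the difference was 0.40 ± 0.21 and limma p was 0.0952, adjusted p = 0.9998. In the antimiR-452 group library 4, whose epithelium markers were the lowest, had one of the highest Hsph1 counts. The part of epithelium in the Hsph1 values was not tested. Without the libraries high in germ cell genes, which leaves antimiR-224 libraries 1 and 2 against 3 controls, Hsph1 differed by 1.31 ± 0.19 with adjusted p = 0.0123 in limma. In that fit 8.59% of all genes passed.

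**Figure D1:**
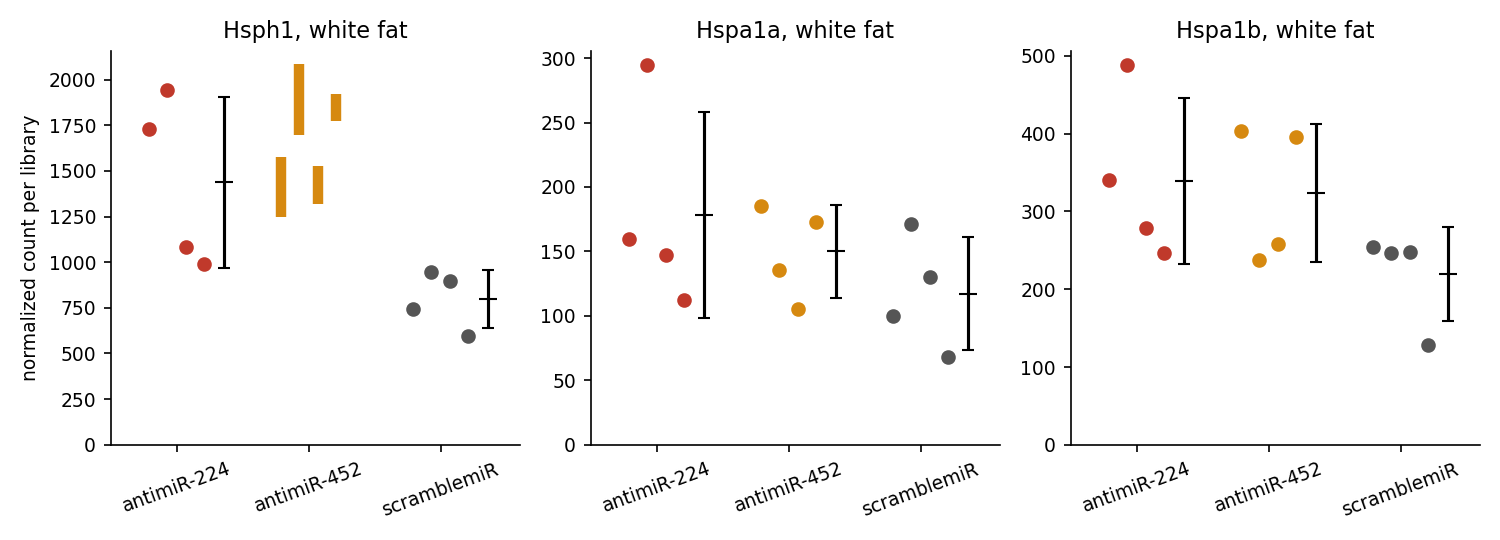
Normalized count per library (vertical axes, linear from 0) of Hsph1, Hspa1a and Hspa1b in WAT with antimiR-224, antimiR-452 and scramblemiR. Points are libraries 1 to 4, black marks the mean ± SD of 4, and the bars for Hsph1 with antimiR-452 span the values over 4 possible sets of reads. All Hsph1 values with either inhibitor, 992 and above, lie over the highest scramblemiR library at 949, while Hspa1a and Hspa1b overlap.

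The inducible Hsp70 pair pointed the same way in white fat with smaller differences and overlapping groups. Hspa1a was at 160, 294, 147 and 112 with antimiR-224 and at 185, 136, 106 and 173 with antimiR-452, against 100, 171, 130 and 67.8 with scramblemiR. Hspa1b was at 341, 489, 279 and 247 with antimiR-224 and at 404, 238, 258 and 396 with antimiR-452, against 254, 246, 248 and 129 with scramblemiR. In both genes control library 4 was the lowest of the 12. For Hspa1a, limma gave 0.58 ± 0.37 with antimiR-224 (adjusted p = 0.842) and 0.39 ± 0.32 with antimiR-452 (adjusted p = 0.999). For Hspa1b limma gave 0.63 ± 0.29 with antimiR-224 (adjusted p = 0.831) and 0.56 ± 0.28 with antimiR-452 (adjusted p = 0.999). Deviations of the pair from their group means went together across the 12 WAT libraries, with Pearson's r = 0.87 (exact permutation p within groups 0.00289, adjusted 0.0241 over 25 pairs of members) and Spearman's rho = 0.84 (exact permutation p = 0.00535, adjusted 0.0458). Leaving out both farthest libraries gave r = 0.88. Shared reads of 2 near-identical genes could contribute to this, and their part was not tested.

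Dnajb1, Hspb1, Hspe1 and Hsf1 overlapped between groups in white fat. Dnajb1 was at 1097, 1285, 750 and 737 with antimiR-224 and at 1067, 1042, 1018 and 1158 with antimiR-452, against 843, 1240, 754 and 934 with scramblemiR. Hspb1, an actin-stabilising small heat shock protein gene, ran from 705 to 894 with antimiR-224 and from 529 to 737 with antimiR-452, against 396 to 829 with scramblemiR. Hsf1 itself ran from 554 to 681 with antimiR-224 and from 553 to 745 with antimiR-452, against 433 to 694 with scramblemiR. Hspe1 ran from 905 to 1163 with antimiR-224 and from 602 to 1205 with antimiR-452, against 626 to 1345 with scramblemiR.

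For the abundant members the deposited means are the main source, because several sets of reads fit them. Hsp90aa1 had a mean of 2156 with antimiR-224 against 1671 with scramblemiR (log2 0.37, p = 0.158) in the authors' deposited table. Over 4 possible sets of reads its limma difference ran from -0.25 to 0.36, with limma p from 0.0435 to 0.915 and adjusted p from 0.830 to 0.992. Hspa8 had 5487 against 4533 with antimiR-224 (log2 0.28, p = 0.234) and 5446 against 4562 with antimiR-452 (log2 0.26, p = 0.285) in the authors' deposited tables. Hspd1 was the member lowest relative to scramblemiR in both authors' tables for WAT, with log2 ratios of -0.22 and -0.15. Over the 10 members, 9 had a log2 ratio above 0 with antimiR-224 and 8 with antimiR-452 in the authors' tables. Their medians were 0.32 and 0.17, against -0.02 and -0.04 over the 17898 and 17791 genes with a mean of at least 10, of which 47.1% and 43.3% were above 0.

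At an adjusted p under 0.05, 0 of 10 members were called in either authors' table for WAT, where the share of all genes called was 0.00343% with antimiR-224 and 0% with antimiR-452. At an unadjusted deposited p under 0.05 it was 1 of 10 higher in each, Hsph1 both times, against 1.12% of 29128 and 2.31% of 29079 genes. The count lower was 0 in each, against 0.433% with antimiR-224 and 0.107% with antimiR-452. By limma 0 of the 7 members recovered with antimiR-224 and 0 of 6 with antimiR-452 passed an adjusted p of 0.05, which 0% of genes did in either comparison. At an unadjusted limma p under 0.05 these counts were 1 of 7, Hsph1, and 0 of 6, against 5.99% and 4.59% of all genes.

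**Figure D2:**
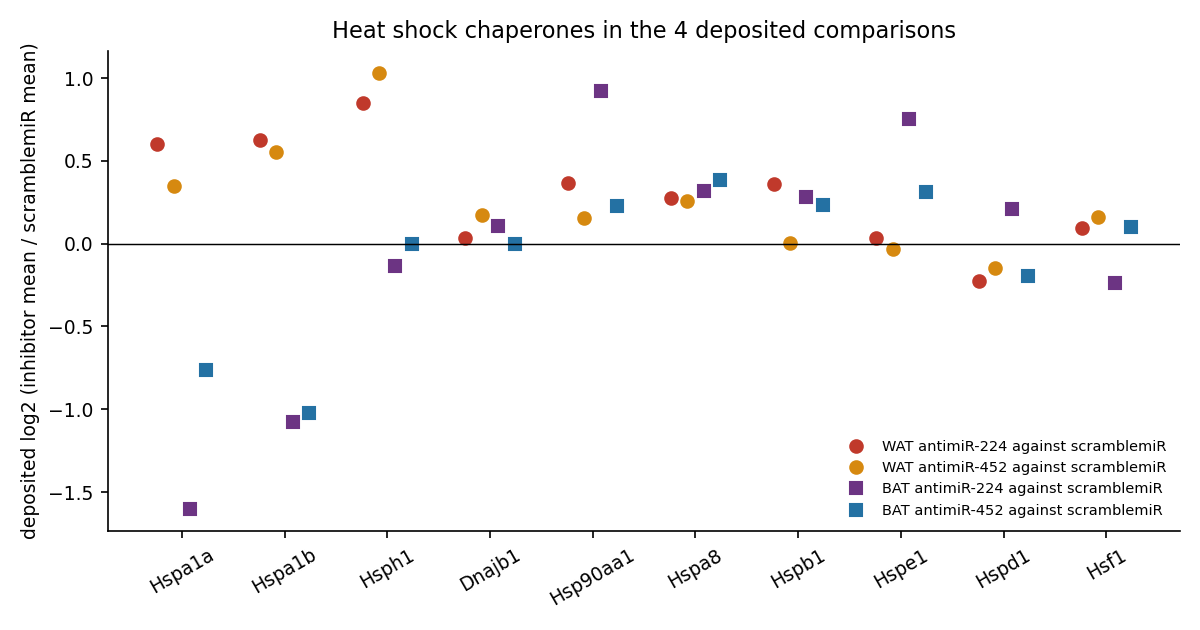
Log2 ratio of inhibitor mean to scramblemiR mean (vertical axis) from the authors' deposited tables for the 10 heat shock chaperones (horizontal axis), circles for WAT and squares for BAT. Hsph1 stands at 0.85 and 1.03 in WAT, and Hspa1a and Hspa1b lie between -1.60 and -0.76 in BAT. None of these ratios had an adjusted p under 0.05.

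In brown fat Hspa1a and Hspa1b varied more between libraries of the same treatment than between treatments. Hspa1a was at 133, 46.0, 141 and 15.2 with antimiR-224 and at 492, 32.0, 48.2 and 31.0 with antimiR-452, against 201, 774, 24.3 and 18.5 with scramblemiR. The highest scramblemiR library was 41.9 times the lowest. Hspa1b was at 95.8, 29.2, 210 and 22.2 with antimiR-224 and at 288, 20.4, 35.1 and 29.98 with antimiR-452, against 146, 556, 32.8 and 19.6 with scramblemiR. Groups overlapped throughout for both genes. The SD of log2 counts within groups was 2.01 for Hspa1a and 1.80 for Hspa1b, larger than that of 96.9% and 96.4% of 11813 genes, whose median was 0.52. In WAT the same SD was 0.51 and 0.44, larger than in 61.5% and 55.0% of 14766 genes.

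The high libraries were largely those high in skeletal muscle genes. BAT antimiR-224 library 1, antimiR-452 library 1 and scramblemiR libraries 1 and 2 held the highest summed muscle levels of their groups, 3565 to 14949, and had Hspa1a at 133 or more. BAT antimiR-224 library 3 was the exception, with Hspa1a at 141 and Hspa1b at 210 beside a muscle level of 59.0. Hspa1l, a neighbouring Hsp70 gene best known from testis, was at 140, 11.7, 5.67 and 8.16 in the BAT antimiR-224 libraries and at 704, 8.74, 4.01 and 39.3 with antimiR-452, against 211.7, 413, 2.12 and 2.17 with scramblemiR. It was low in antimiR-224 library 3. The ratio of Hspa1a to Hspa1b ran from 0.670 to 1.71 over the 12 BAT libraries and from 0.394 to 0.695 over the 12 WAT libraries. The part of muscle tissue in the Hspa1a and Hspa1b values was not tested.

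**Figure D3:**
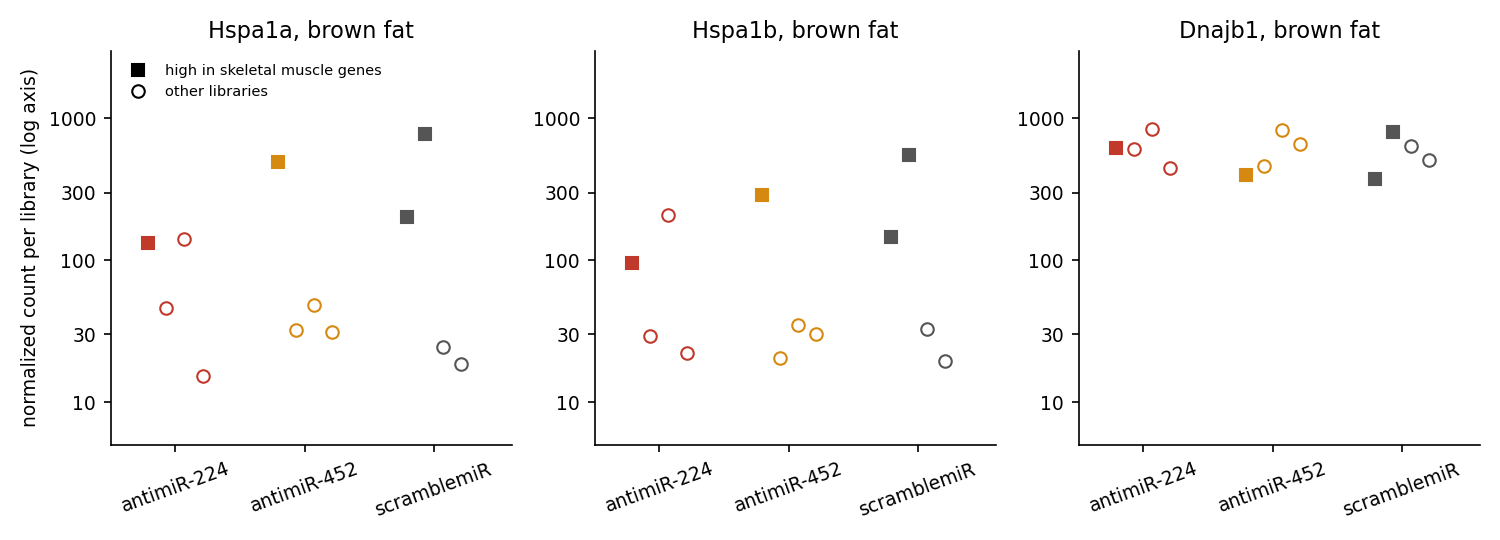
Normalized count per library (vertical axes, logarithmic) of Hspa1a, Hspa1b and Dnajb1 in BAT with antimiR-224, antimiR-452 and scramblemiR. Filled squares are the 4 libraries high in skeletal muscle genes and open circles the other 8. Hspa1a and Hspa1b span 15.2 to 774 and 19.6 to 556, and Dnajb1 spans 374 to 837.

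The deposited log2 ratios of the pair in brown fat were negative, and the spread was wide. The authors' deposited table for antimiR-224 gives Hspa1a a mean of 83.8 against 254 (log2 -1.60, p = 0.344) and Hspa1b 89.3 against 189 (log2 -1.08, p = 0.427). With antimiR-452 the values in the authors' deposited table were 151 against 256 (log2 -0.76, p = 0.665) and 93.3 against 189.6 (log2 -1.02, p = 0.534). On log2 values of single libraries limma gave Hspa1a -0.60 ± 1.29 with antimiR-224 (adjusted p = 0.889) and -0.41 ± 1.31 with antimiR-452 (adjusted p = 0.999). Hspa1b was at -0.50 ± 1.13 with antimiR-224 (limma adjusted p = 0.895) and at -0.77 ± 1.13 with antimiR-452 (adjusted p = 0.999). Each comparison was refitted without its muscle-high libraries, library 1 of the inhibitor and libraries 1 and 2 of scramblemiR. All 4 differences then turned positive, to 1.097 and 0.74 for Hspa1a and to 1.003 and 0.11 for Hspa1b. Their limma adjusted p was 0.872 and 0.925 for Hspa1a, and 0.880 and 0.980 for Hspa1b.

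Hsph1 did not show in brown fat the separation it had in white fat. It was at 2466, 740, 447 and 1546 with antimiR-452, against 1516, 2095, 797 and 763 with scramblemiR, and the groups overlapped. The limma difference was -0.16 ± 0.55 (adjusted p = 0.999). With antimiR-224 the deposited mean was 1175 against 1293 in the authors' table (log2 -0.14, p = 0.744), and 2 sets of reads fitted it. Whether the effect on Hsph1 differs between tissues was not tested, because its reads were not unique in one group of each interaction.

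Among the other members in brown fat, the largest deposited ratios with antimiR-224 were those of Hsp90aa1 and Hspe1. Hsp90aa1 had a mean of 1812 against 958 in the authors' deposited table (log2 0.92, p = 0.125). Over 3 possible sets of reads its limma difference ran from 0.09 to 0.91, with p from 0.0106 to 0.931 and adjusted p from 0.745 to 0.981. Hspe1 had 3049 against 1813 (log2 0.75, p = 0.0465, adjusted p = 1 in the authors' deposited table), and its partner Hspd1 had 5104 against 4422 (log2 0.21, p = 0.682). For antimiR-452 the means of Hspe1 in the authors' deposited table were 2266 against 1826 (log2 0.31, p = 0.569) and those of Hspd1 3900 against 4459 (log2 -0.19, p = 0.715). Hspa8 had 4790 against 3843 with antimiR-224 and 5057 against 3869 with antimiR-452 in the authors' tables (log2 0.32 and 0.39, p = 0.431 and 0.491). Hsp90aa1 with antimiR-452 was at 708, 1827, 589 and 1391, against 778, 1441, 802 and 809 with scramblemiR, with values of the inhibitor group on both sides of the controls.

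Dnajb1, Hspb1 and Hsf1 had overlapping groups in brown fat. Dnajb1 was at 621, 609, 837 and 447 with antimiR-224 and at 397, 461, 830 and 656 with antimiR-452, against 374, 806, 644 and 510.02 with scramblemiR. Hspb1 was at 848, 895, 921 and 1074 with antimiR-224 and at 1232, 753, 1148 and 512 with antimiR-452, against 661, 1396, 607 and 418 with scramblemiR. Hsf1 was at 545, 499, 471 and 412 with antimiR-224 and at 784, 475, 695 and 506 with antimiR-452, against 617, 639, 509 and 510.02 with scramblemiR. Without the muscle-high libraries Hspb1 differed by 0.93 ± 0.24 with antimiR-224 and had an unadjusted limma p of 0.00243, but adjusted p = 0.871. The only controls left in that fit were scramblemiR libraries 3 and 4, at 607 and 418. Hsf1 had the smallest spread of the 5 members measured in all 12 BAT libraries, an SD of 0.25 in log2, with 9.46% of genes below it.

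Over the 10 members in BAT, 6 had a deposited log2 ratio above 0 with antimiR-224 and 5 with antimiR-452 in the authors' tables. The medians were 0.16 and 0.05, against -0.05 and 0.06 over 14537 and 14671 genes with a mean of at least 10. At an adjusted deposited p under 0.05, 0 of 10 were called with either inhibitor, the same as the 0% of all genes. At an unadjusted deposited p, 1 of 10 was higher with antimiR-224, Hspe1, against 0.477% of genes, and 0 of 10 with antimiR-452, against 0.19%. By limma 0 of 5 and 0 of 7 recovered members passed an adjusted p of 0.05, against 0% of genes, and 0 had an unadjusted p under 0.05, against 5.63% and 4.16% of genes. No recovered member had groups free of overlap, which 2.23% of genes had in the higher and 1.37% in the lower direction with antimiR-224. For antimiR-452 these shares were 1.74% and 1.55%.

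The inhibitors were also set against each other and across tissues. Of 6 members in WAT and 5 in BAT, 0 differed between antimiR-224 and antimiR-452 at a limma adjusted p under 0.05, and 0 at an unadjusted p, against 1.31% and 0.836% of all genes at the latter and 0% at the former. Log2 differences of antimiR-224 over antimiR-452 ran from -0.18 to 0.36 in WAT and from -0.31 to 0.28 in BAT. The effect in BAT minus that in WAT was -1.19 ± 1.34 for Hspa1a and -1.13 ± 1.19 for Hspa1b with antimiR-224 (limma adjusted p = 0.798 and 0.787). With antimiR-452 it was -0.80 ± 1.42 and -1.33 ± 1.24 (limma adjusted p = 0.954 and 0.906). Of 5 members fitted in each such test, 0 passed, as 0% of genes did, and 0 had an unadjusted p under 0.05, against 7.03% and 5.56% of genes. The intervals are wide enough to hold differences of either sign.

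Between the tissues, the mitochondrial pair was higher in BAT than in WAT among the scramblemiR libraries under each scaling tried, while the calls of Hsph1, Hsf1, Hspa8 and Hspb1 depended on the scaling. Counts here were scaled jointly over the 8 libraries by the median ratio of genes, and the same fit on the TPM scale is given after them. Some library numbers in the file headers recur in both tissues, so that libraries of BAT and WAT may share mice. The recovered libraries cannot be tied to those numbers, and the tissues were fitted as independent. Hspe1 was at 1773, 2551, 2786 and 2652 in BAT, against 714, 456, 811 and 995 in WAT, a limma log2 difference of 1.75 ± 0.24 with adjusted p = 4.10e-04. Hspd1 was at 5565, 5655, 5027 and 7578 in BAT, against 2309, 1333, 2480 and 2382 in WAT (1.51 ± 0.23, limma adjusted p = 6.29e-04). Every BAT library lay above every WAT library for both genes, in TPM as well.

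Hsph1 was at 2040, 2777, 1077 and 1040 in BAT, against 552, 691, 669 and 443 in WAT (1.45 ± 0.32, limma adjusted p = 0.00532). Hsf1 was at 830, 847, 688 and 695 in BAT, against 439, 505, 509 and 320 in WAT (0.80 ± 0.18, limma adjusted p = 0.00489). Hspa8 was at 4625, 6548, 5111 and 4376 in BAT, against 2674, 3374, 3836 and 3506 in WAT (0.62 ± 0.18, limma adjusted p = 0.0202). On this scale these 3 genes had no overlap between tissues either. Hspb1 was at 889, 1850, 819 and 569 in BAT, against 333, 603, 552 and 293 in WAT, and overlapped (1.14 ± 0.37, limma adjusted p = 0.0334).

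The remaining 4 members did not pass on this scale. Dnajb1 averaged 784 ± 241 in BAT and 695 ± 148 in WAT (SD, 4 libraries each), with a log2 difference of 0.14 ± 0.24. Hsp90aa1 averaged 1286 ± 417 in BAT and 1234 ± 168 in WAT, with 0.02 ± 0.21. Hspa1a was at 269.96, 1026, 32.9 and 25.2 in BAT, against 74.0, 124, 97.1 and 50.1 in WAT (0.60 ± 1.15, limma adjusted p = 0.698). Hspa1b was at 197, 737, 44.3 and 26.7 in BAT, against 188, 179, 185 and 95.2 in WAT (-0.43 ± 0.97, limma adjusted p = 0.739). For each gene of the pair, BAT libraries 1 and 2 stood above all WAT libraries and BAT libraries 3 and 4 below them all.

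On the joint scale 6 of 10 members were called at an adjusted limma p under 0.05, all higher in BAT, while 42% of 16825 genes were called, 19.9% of genes higher and 22.1% lower. At an unadjusted limma p under 0.05 the same 6 of 10 passed, against 50.4% of genes. Groups were free of overlap in BAT above WAT for 5 members, as for 19.8% of genes.

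On the TPM scale 3 of 10 members were called, 2 higher and 1 lower, while 7.75% of 17125 genes were called higher and 52.2% lower. The median of all genes was -0.81 there, against -0.08 on the joint scale. Hspe1 (1.02, limma adjusted p = 0.00139) and Hspd1 (0.79, adjusted p = 0.00518) were higher in BAT by limma. Hsp90aa1 was lower (-0.70, limma adjusted p = 0.0150). Hsph1 (0.73, adjusted p = 0.0985), Hspb1 (0.41, adjusted p = 0.381) and Hsf1 (0.08, adjusted p = 0.760) did not pass in limma, nor did Dnajb1 (-0.58, adjusted p = 0.0670), and their TPM ranges overlapped. Hspa8 was at -0.10 (limma adjusted p = 0.612), with the sign turned.

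BAT libraries 1 and 2 held 711864 and 818936 normalized counts of 10 skeletal muscle markers, against 429.8 and 723 in BAT libraries 3 and 4. Without libraries 1 and 2, on the joint scale, Hspe1 (1.92), Hspd1 (1.58), Hsph1 (0.87) and Hsf1 (0.66) were still called higher, with limma adjusted p of 0.00212, 0.00592, 0.0155 and 0.0496. Hspa8 (0.51, adjusted p = 0.0929) and Hspb1 (0.68, adjusted p = 0.148) no longer passed in limma. For Hspa1a and Hspa1b the log2 differences were then -1.48 ± 0.42 (limma adjusted p = 0.0278) and -2.15 ± 0.38 (adjusted p = 0.00418). The libraries left out were those above all WAT libraries for this pair, and only BAT libraries 3 and 4, below them all, remained. The choice was made after seeing the data and fixed the sign, so these p-values are no evidence of a tissue difference in the pair. In that fit 34.8% of genes were called, 16.4% higher and 18.4% lower. Fewer cells of a type and less RNA per cell cannot be told apart in tissue samples.

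**Figure D4:**
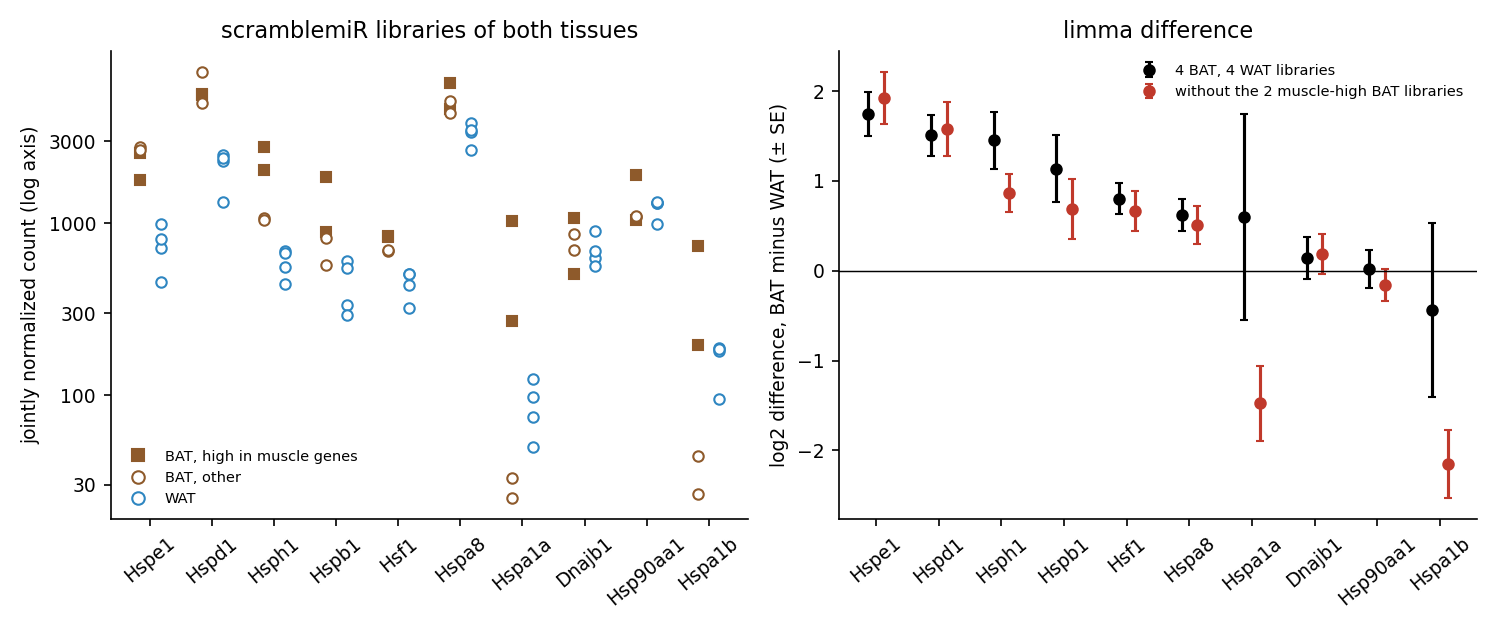
Left, jointly normalized count per scramblemiR library (vertical axis, logarithmic) of the 10 members in BAT (brown, filled squares for the 2 muscle-high libraries) and WAT (blue). Right, limma log2 difference of BAT minus WAT with SE, from all 8 libraries (black) and without the 2 muscle-high BAT libraries (red), both on the joint scale. Hspe1 stays near 1.75 and 1.92, and Hspa1a moves to -1.48 in red from 0.60 in black.

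The wider chaperone system gave few differences with either inhibitor. Of 25 other cytosolic chaperones and co-chaperones, 0 had an adjusted deposited p under 0.05 in the authors' 4 tables, and 1 had an unadjusted p under 0.05, Dnajb4, lower in BAT with antimiR-224, where 0.668% of all genes were. The authors' deposited table gives this Hsp40 638 against 1082 (log2 -0.76, p = 0.0438). Among 15 endoplasmic reticulum chaperones, 8 mitochondrial chaperones and proteases, 8 subunits of the cytosolic chaperonin, 6 small heat shock proteins, Hsf2 and Hsf4, and the cold-inducible Cirbp and Rbm3, 0 passed either threshold in any of the authors' tables, where the shares of all genes at an unadjusted p ran from 0.107% to 2.31% in a direction. In WAT the 8 mitochondrial genes had deposited log2 ratios below 0 in 7 cases with antimiR-224 and in 8 with antimiR-452, with medians of -0.32 and -0.19. Their smallest p was that of Hspa9, the mitochondrial Hsp70, at 9496 against 12089 with antimiR-224 in the authors' table (log2 -0.35, p = 0.149).

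Some small heat shock protein genes also split between the BAT scramblemiR libraries, with values for 3 chosen after they were seen. There Hspb6 was at 10026, 8881, 306 and 264, and Hspb7 at 4223, 3466, 4.23 and 17.4. Cryab, αB-crystallin, was at 6027, 5942, 289 and 137. All are abundant in muscle, and their high libraries were the muscle-high ones. In BAT antimiR-224 library 3, where Hspa1a and Hspa1b were highest in their group, Hspb2 and Hspb3 were at 7.94 and 3.40, against 190.006 and 56.7 in library 1. The deposited medians of the 6 small heat shock proteins in BAT were -1.22 with antimiR-224 and 0.27 with antimiR-452 in the authors' tables. In WAT Hspa1l was at 7.08, 1359, 1.04 and 12.6 with scramblemiR, high in the library with the most germ cell markers, and in the authors' deposited table its mean with antimiR-452 was 23.4 against 347 (log2 -3.89, p = 0.269).

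Immediate early genes are transcription factors and feedback genes that answer within minutes to handling and stress. Most had lower deposited means in BAT with either inhibitor, and in WAT with antimiR-452. In BAT 17 of 18 had a log2 ratio below 0 with antimiR-224 (median -0.78), and 15 of 18 with antimiR-452 (median -0.75), in the authors' tables. Of all genes with a mean of at least 10 in BAT, 44.5% had a ratio above 0 with antimiR-224 and 56.1% with antimiR-452. At an unadjusted deposited p under 0.05 these were 2 of 18 lower with antimiR-224, Jun and Nr4a1, against 0.668% of genes, and 1 of 18 lower with antimiR-452, Egr1, against 0.309%. Jun had a mean of 1037 in the authors' deposited table against 2066 (log2 -0.99, p = 0.0178). Egr1 had 220.4 against 941 in the authors' deposited table for antimiR-452 (log2 -2.09, p = 0.0473). Its libraries were at 203, 151, 307 and 220.2 with antimiR-452, against 411, 1143, 1967 and 233 with scramblemiR, so that 1 of the libraries high in Egr1, scramblemiR library 3, was low in Hspa1a. No gene of the list had an adjusted deposited p under 0.05. Jun overlapped between groups, at 1324, 586, 1095 and 1143 with antimiR-224 against 1267, 2824, 2738 and 1437 with scramblemiR. With antimiR-224 the 12 genes recovered in every BAT library summed to 6364, 3536, 2668 and 2942. They summed to 4679, 2834, 4009 and 3103 with antimiR-452. The same 4 scramblemiR libraries, used in both comparisons, summed to 4720, 9616, 9491 and 3610, so the groups overlapped. In WAT 9 of 18 had a log2 ratio below 0 with antimiR-224 (median 0.01), and 15 of 18 with antimiR-452 (median -0.19). Of all genes with a mean of at least 10 in WAT, 47.1% and 43.3% had a ratio above 0. In WAT 0 of 18 passed either threshold. At the unadjusted one, 1.12% and 2.31% of all genes were higher, and 0.433% and 0.107% lower.

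The chaperone classes were also set between tissues on the joint scale, on which 19.9% of all genes were called higher and 22.1% lower, and 16.4% and 18.4% without the muscle-high libraries. On the TPM scale these shares were 7.75% and 52.2%. No test compared the classes with each other. Of 8 mitochondrial chaperones and proteases, 8 were higher in BAT than in WAT among the scramblemiR libraries at a limma adjusted p under 0.05 (median log2 difference 1.14). Without the muscle-high libraries all 8 were called again, with a median of 1.26. On the TPM scale 4 of 8 were called higher and 0 lower, with a median of 0.41. On the joint scale Dnaja3, a mitochondrial Hsp40, averaged 7139 in BAT and 1451 in WAT (2.28, limma adjusted p = 6.51e-05). Grpel1, the nucleotide exchange factor of the matrix Hsp70, averaged 5920 and 1471 there (2.01, limma adjusted p = 1.29e-04). Of 15 endoplasmic reticulum chaperones, 3 were higher and 8 lower in BAT, or 3 and 3 without the muscle-high libraries, with medians of -0.46 and -0.34. On the TPM scale 0 were called higher and 12 lower. On the joint scale Pdia4, a disulfide isomerase, averaged 801 in BAT and 2790 in WAT (-1.77, limma adjusted p = 1.23e-04). Dnajb9 went the other way on the joint scale, at 1719 in BAT and 971 in WAT (0.82, limma adjusted p = 8.02e-04).

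Of 25 cytosolic chaperones and co-chaperones, 13 were higher and 1 lower in BAT, and 5 and 0 without the muscle-high libraries. On the TPM scale 1 was higher and 6 lower. On the joint scale Ahsa1, the activator of the Hsp90 ATPase, averaged 2114 in BAT and 1033 in WAT (1.03, limma adjusted p = 5.54e-04). Among 8 chaperonin subunits 2 were higher and 0 lower, and 1 and 0 without those libraries, but 0 and 6 on the TPM scale. On the joint scale Hsf4 was higher in BAT, at 113 against 40.4 in WAT (1.46, limma adjusted p = 0.00253), while Hsf2 did not pass (0.65, adjusted p = 0.0771). Cirbp, a cold-inducible RNA-binding protein gene, was lower in BAT, at 505 against 1284 in WAT (-1.34, limma adjusted p = 2.75e-04). Small heat shock proteins gave 0 calls of 6, and 3 lower of 5 tested without the muscle-high libraries. Of 18 immediate early genes, 2 were higher and 2 lower in BAT, and 2 and 4 on the TPM scale.

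Genes were ranked by Pearson's r with a score of inducible members over 12 libraries of a tissue, with group means taken off. The score was the mean log2 count of Hspa1a, Hspa1b and Dnajb1, since Hsph1 was not unique in every group. The points share library, depth and tissue makeup. How high r would reach by selection alone among so many genes was not tested. A place among the leading genes is therefore no evidence of shared regulation. In BAT the SD within groups was 2.01 for Hspa1a, 1.80 for Hspa1b and 0.44 for Dnajb1. The BAT score therefore mostly followed the Hsp70 pair. Dnajb1 went with Hspa1a and Hspa1b at r = 0.09 and 0.15 in BAT, and at 0.64 and 0.47 in WAT. In BAT, Hacd1 (r = 0.98), an acyl dehydratase of fatty acid elongation prominent in muscle, and Polb (r = 0.96), DNA polymerase beta, led 7561 genes, followed by Epb41l4b, Gm11966, Amz2, Gm15421, Nutf2 and Aimp1 with r from 0.89 to 0.93. In WAT, Tbc1d10a (r = 0.93) and Nr4a3 (r = 0.89), an orphan nuclear receptor of the immediate early class, led 9477 genes, followed by Ints13, Rps13, Gm6485, Arl13b, Kdm3a and Tmem64 with r from 0.84 to 0.88. No gene was among the leading 8 of both tissues.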

How the data were processed

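RNA was extracted with Trizol, selected with oligo-dT and made into directional libraries, per the labels' protocols. Per the submitters' processing notes the build was GRCm38.p4 and the tools included R 2.15.3 and DESeq 1.10.1. The sources used here name no aligner, counter or annotation. Per the file headers, the authors deposited for each inhibitor and tissue a mean signal (normalized counts averaged over 4 libraries), the ratio, its log2, and the p-value with its adjusted p-value. Each table was normalized separately. Of the gene IDs, 99.4% to 99.5% matched a symbol.

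Reads per library were decoded from means printed to 15 digits: each mean is a sum of 4 whole numbers divided by 4 size factors. Controls, printed in 2 tables, were recovered for 100% of genes, and inhibitor groups for 88.9% to 91.5%. On simulated data 0 decoded genes were wrong. No libraries agreed within sampling noise (chi-square per degree of freedom at least 10.3). For genes averaging 10 or more, limma 3.58.1 (R 4.3.3, trend and robust variance) compared log2(normalized count + 1), a scale that understates changes of low genes. Calls were made at 0.05 after Benjamini-Hochberg adjustment. In simulations of the 4 inhibitor comparisons and of the tissue comparison, 91 to 99 of 100 genes changed 4-fold were called, and 31 to 59 of 100 changed 2-fold, beside 3 to 10 false calls. For the interactions these were 56 to 81 and 1 to 14. The simulations gave every gene the same relative spread, set from the median gene. They do not show how often changes would be called in genes of wider spread, such as Hspa1a and Hspa1b in BAT. Named were all 10 members and, in each tissue, the 8 genes most like the score of Hspa1a, Hspa1b and Dnajb1. For each list and comparison, only some of the 2 genes with the smallest p were named. Further genes (Hspa1l in BAT, Hspb6, Hspb7 and Cryab by library) were chosen after their values were seen. Members and lists were chosen with earlier results of these data known. Tissues were compared after joint median-of-ratios scaling, and again on the TPM scale, chosen after seeing the data. No count model was applied to the recovered reads.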

Additional observations from a re-analysis of the deposited data

Results flagged for a closer look

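In 6 of 45 groups of 4 libraries, 1 library lay far from the other 3, with a gap of 0.861 to 0.963 of the range of the group. Chance flags about 1 in 20 such groups where values are normal and independent. The groups here share libraries and their counts can be skewed, so this rate does not show an excess. Hspa1a with antimiR-452 in BAT had library 1 at 492 and the others at 48.2 or less, and Hspa1b there had 288 against 35.1 or less; that library had the highest muscle gene level in BAT, 14949. Hsp90aa1 in the BAT scramblemiR group had library 2 at 1441, with the others between 778 and 809. Hspa1b in the WAT scramblemiR group had library 4 at 129 and the others between 246 and 254. Hsp90aa1 had WAT scramblemiR library 1 at 1327, with the others at 1756 or more. Hspd1 had WAT scramblemiR library 2, the library high in germ cell genes, at 1831, with the others at 3119 or more. What part muscle or germ cell RNA has in these values was not tested.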

How the results depend on the processing

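No paired analysis was possible because recovered libraries cannot be tied to the replicate numbers in the labels or to the library numbers in the file headers, some of which recur in both tissues. At an unadjusted deposited p, 1 member was called in each of WAT antimiR-224, WAT antimiR-452 and BAT antimiR-224, against 0 adjusted. Each was higher with the inhibitor, as were 1.12%, 2.31% and 0.477% of all genes at that threshold. Without the libraries high in male germ cell genes, an alternative chosen after seeing the data, limma called 1 member, Hsph1, with antimiR-224 in WAT. In that fit 8.59% of all genes were called, and antimiR-224 was left with libraries 1 and 2, those with the highest epithelium markers. Without the muscle-high libraries, also chosen after seeing the data, these log2 differences turned sign: Hspa1a and Hspa1b in BAT to 1.097 and 1.003 with antimiR-224 and to 0.74 and 0.11 with antimiR-452, Hsph1 in BAT with antimiR-452 to 0.023, and, between tissues, Hspa1a to -1.48 and Hsp90aa1 to -0.16. The interactions turned to 0.51 for Hspa1a and 0.37 for Hspa1b with antimiR-224, and to 0.19 for Hspa1a with antimiR-452. With TMM scaling Hsp90aa1 between tissues was -0.0091. With TPM scaling, chosen after seeing the data, 3 members were called between tissues, against 60% of genes. Hspa1a (-0.12), Dnajb1 (-0.58), Hsp90aa1 (-0.70) and Hspa8 (-0.10) turned sign with it. The cause was not tested.

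Leaving out 1 library at a time gave, in BAT with antimiR-224, -1.36 to 0.41 for Hspa1a and -1.19 to 0.39 for Hspa1b. With antimiR-452 it gave -1.34 to 0.61 for Hspa1a, -1.60 to 0.12 for Hspa1b and -0.57 to 0.25 for Hsph1, and the Hspa1a interaction ran from -1.73 to 0.22. In BAT the highest of these values for the Hsp70 pair came without scramblemiR library 2, and Hspa1a with antimiR-224 was also positive without antimiR-224 library 4 (0.039). Between tissues it gave -0.42 to 1.35 for Hspa1a, -1.32 to 0.26 for Hspa1b, -0.024 to 0.34 for Dnajb1 and -0.18 to 0.10 for Hsp90aa1, and 4 to 6 members were called. In those fits 5919 to 6719 of 15822 to 16940 genes were called. Hspa8 was called in 6 of 8 such fits (lost without BAT library 2 or WAT library 1) and Hspb1 in 3 of 8. Hsph1 with antimiR-224 in WAT stayed between 0.65 and 0.97, with limma adjusted p from 0.236 to 0.9999. It was not refitted in this way with antimiR-452, where several sets of reads are possible. Members without unique reads were judged mainly from deposited means, which give no spread. Where no more than 4 sets of reads were possible, each set was also fitted with limma, and none passed an adjusted p of 0.05.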
